A study of Rattus norvegicus with 6 samples.

Results

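The insulin-like growth factor (IGF) system was examined in RNA sequencing data from primary vascular smooth muscle cells of the rat, which form the muscle layer of arteries. Its genes were taken by symbol: the ligands Igf1 and Igf2, the receptors Igf1r and Igf2r, and the binding proteins Igfbp2, Igfbp3, Igfbp4, Igfbp5, Igfbp6 and Igfbp7. All 10 were found, each once, among the 30945 genes of each count file. The siRNA_ANK group (n = 3 libraries) came from cells given a small interfering RNA called siRNA_ANK, and the Negative_control group (n = 3) from cells given a negative control; no other allele or agent is named for either. The series title calls the cells ANK-deficient. The sources used here do not state sex, strain, passage, culture medium, siRNA sequence, dose or time, nor whether replicates came from separate animals or cultures. The p-values therefore reflect the spread between these samples only, and that spread may be technical.

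IGF1 and IGF2 are small secreted proteins related to insulin. They act through the tyrosine kinase receptor encoded by Igf1r, which signals through IRS adaptors to PI3K, AKT and mTOR and promotes growth, survival and migration of vascular smooth muscle cells. The receptor encoded by Igf2r has no kinase: it takes up IGF2 for degradation and carries lysosomal enzymes tagged with mannose 6-phosphate. IGF-binding proteins hold the ligands outside the cell and are cut by secreted proteases, while the protein of Igfbp7 binds IGFs only weakly.

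Ankh, the gene whose protein is also called ANK and which is needed for release of pyrophosphate, was read first as a check of the labels. It was lower in every siRNA_ANK library, at 84.9, 76.7 and 120 CPM in siRNA_ANK replicates 1, 2 and 3, against 338, 351 and 367 CPM in the negative controls (CPM, counts scaled to a common library total with TMM factors). Library totals lay between 15641259 and 17441548 counts. Along the first principal component (72.3% of the variance), siRNA_ANK replicate 3 (23.9) and Negative_control replicate 2 (-25.5) lay nearest to the other group; the other siRNA_ANK libraries were at 34.1 and 38.3, and the other controls at -34.4 and -36.5. Smooth muscle markers summed to between 5155 and 6173 CPM in siRNA_ANK and between 2595 and 3608 CPM in the controls, and 7 of 8 rose, Tagln, Smtn, Acta2 and Lmod1 among them with the smallest adjusted p. Fibroblast markers summed to between 192 and 203 CPM in siRNA_ANK and between 118 and 127 CPM in the controls, and 5 of 6 rose, Lum, Scara5, Dcn and Pdgfra among them. A marker counted as risen had an adjusted p under 0.05 in edgeR, as did 19.9% of all genes tested in that direction. The endothelial markers Cdh5, Kdr and Tie1 and the leukocyte markers Ptprc, Adgre1, Cd163 and Itgam had 0 counts in every library. Of the other endothelial markers, Tek was at 0.659 to 1.01 CPM in siRNA_ANK and 0.633 to 1.07 CPM in the controls. Pecam1 was at 0 to 0.127 CPM in siRNA_ANK and 0 to 0.0625 CPM in the controls, with overlapping groups. Vwf was at 0.240 to 0.443 CPM in siRNA_ANK and 0 to 0.115 CPM in the controls, with groups that did not overlap. The same held for 51.1% of the genes with enough counts to be tested. Both Pecam1 and Vwf had too few counts for a test. Of the other leukocyte markers, Csf1r was at 0.0633 to 0.719 CPM in siRNA_ANK and 0.187 to 0.461 CPM in the controls, and Laptm5 was seen in siRNA_ANK replicate 3 alone, at 0.190 CPM. Schwann cell markers summed to between 6.05 and 8.74 CPM in siRNA_ANK and between 7.65 and 8.62 CPM in the controls, and epithelial markers to at most 0.169 CPM. The smooth muscle, fibroblast and Vwf differences moved with the groups beside every result on the IGF genes, and their part in those results was not tested. In bulk libraries, fewer cells of a type and less RNA per cell cannot be told apart.

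Igf1, its receptor gene and 3 binding protein genes were higher in siRNA_ANK cells, while Igf2r was lower. Of the 10 genes, 7 had enough counts to be tested; 5 of them rose, 1 fell and Igfbp4 did not pass the threshold. Without siRNA_ANK replicate 3 and Negative_control replicate 2 together, 5 rose and 2 fell, Igfbp4 being the second. A call here is an adjusted p under 0.05 in edgeR's quasi-likelihood test, adjusted over all 13016 genes tested. Over all those genes 40.1% were called, 19.9% higher and 20.2% lower. Without the libraries named above, 3007 genes were called higher and 3049 lower over the whole table, instead of 2594 and 2629. In 6 of the 7 genes the groups stood apart, against 51.1% of all genes tested. The median log2 fold change was 0.51 over the 7 genes and 0.01 over all genes tested. Only Igf1 among the called members changed at least 2-fold.

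**Figure D1:**
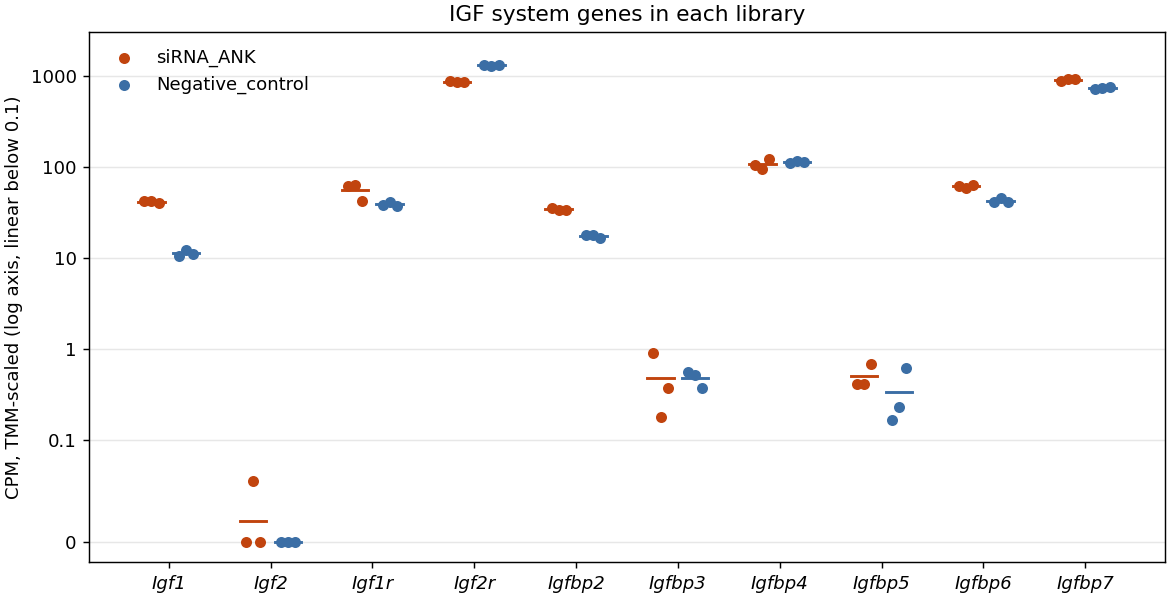
Levels in CPM of the 10 IGF system genes in each library, on a log axis that is linear below 0.1, with siRNA_ANK left of Negative_control and bars at the group means (3 libraries each). Igf1 lies at 40.3 to 42.8 CPM in siRNA_ANK and at 10.6 to 12.2 CPM in the controls, while Igf2, Igfbp3 and Igfbp5 stay under 1 CPM in every library.

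Igf1 showed the largest change of the system. This gene (ENSRNOG00000004517, chr7:22282930-22359296, plus strand of mRatBN7.2) encodes the IGF that vascular smooth muscle cells make and respond to. It measured 42.8, 41.7 and 40.3 CPM in siRNA_ANK replicates 1, 2 and 3 and 10.6, 12.2 and 11.1 CPM in the controls. All 3 siRNA_ANK libraries lay close together and above every control. The means were 41.6 ± 1.28 CPM in siRNA_ANK and 11.3 ± 0.806 CPM in the controls (SD, n = 3 each), 3.68-fold higher in siRNA_ANK (log2 fold change 1.88 ± 0.09 by SE, with adjusted p = 9.22e-10 from edgeR). Of all genes tested, 1.86% had a larger log2 fold change in size. On 636 to 714 counts in siRNA_ANK and 178 to 212 in the controls, the value moved only between 1.83 and 1.96 over the 15 alternative settings.

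Igf2, the fetal growth factor gene, was nearly silent. It had 0, 1 and 0 counts in siRNA_ANK and 0 in each control. Both groups lie under 3 counts, the limit that a count of 0 allows, which is 0.0597 CPM over the 50268879 control counts, so no fold is given. Igf2 (ENSRNOG00000020369) lies on the minus strand at chr1:197814410-197823018 of mRatBN7.2. Its imprinted neighbour H19, 81275 bp away, and Ins2, 20262 bp away, had 0 counts in every library. Igf1 was therefore the only IGF ligand gene with more than 1 count in any library.

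The signalling receptor gene Igf1r rose and the clearance receptor gene Igf2r fell. Igf1r (ENSRNOG00000014187, chr1:121550743-121831777, plus strand of mRatBN7.2) was at 61.0, 63.3 and 42.5 CPM in siRNA_ANK and at 38.3, 41.6 and 37.6 CPM in the controls. Replicate 3 of siRNA_ANK stood far below the other pair and only just above the highest control. With means of 55.6 ± 11.4 CPM in siRNA_ANK and 39.2 ± 2.16 CPM in the controls (SD, n = 3 each), Igf1r was 1.42-fold higher (log2 fold change 0.51 ± 0.14 by SE, with adjusted p = 0.0177 from edgeR). This call was lost without siRNA_ANK replicate 1 (edgeR adjusted p = 0.0561), Negative_control replicate 1 (0.0613) or Negative_control replicate 3 (0.0587), and it did not pass against a fold of 1.2 (0.0954). Without siRNA_ANK replicate 3 the log2 fold change was 0.66 (edgeR adjusted p = 1.39e-08).

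Igf2r was among the more abundant transcripts of the system and its spread was small. On the plus strand of mRatBN7.2 at chr1:47979109-48067501 (ENSRNOG00000014997), it was at 882, 846 and 864 CPM in siRNA_ANK and 1312, 1290 and 1308 CPM in the controls. Replicates lay close together in both groups, and every siRNA_ANK library was far below every control. Its means were 864 ± 17.8 CPM in siRNA_ANK and 1303 ± 11.4 CPM in the controls (SD, n = 3 each), 1.51-fold lower in siRNA_ANK (log2 fold change -0.59 ± 0.05 by SE, with adjusted p = 3.95e-07 from edgeR). Per transcript length, in TPM (length-adjusted levels that sum to the same total in every library), Igf2r exceeded Igf1r 7.33-fold, 6.78-fold and 10.3-fold in siRNA_ANK replicates 1, 2 and 3, against 17.4-fold, 15.7-fold and 17.6-fold in the controls. This ratio is computed within a library and does not depend on library scaling. Its groups did not overlap, and the exact two-sided permutation test gave p = 0.1, the smallest that 3 against 3 libraries can give.

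The promoters of the gene that rose most and of the receptor genes, which moved in opposite directions, are shown because they differ in base composition and in known protein-binding letters. Each is the stretch of 250 bases before the RefSeq gene start on the GRCr8 build; the expression files use mRatBN7.2, and which start the cells use was not measured here. Capitals mark matches, on either strand, to the SP1-family GC box GGGCGG, the E-box CACGTG and GTCACGTGAC, the stretch that both E-boxes of Igf2r share, which contains the E-box and has the letters of the CLEAR element bound by TFEB, a regulator of lysosomal genes; TATAAA and CCAAT were searched too and are not in these stretches.
Igf1, chr7:24172282-24172531, plus strand: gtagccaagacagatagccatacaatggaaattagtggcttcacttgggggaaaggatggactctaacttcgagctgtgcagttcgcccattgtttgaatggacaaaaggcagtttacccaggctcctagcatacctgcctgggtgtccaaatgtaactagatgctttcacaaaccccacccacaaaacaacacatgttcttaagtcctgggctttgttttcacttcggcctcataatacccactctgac
Igf1r, chr1:130959747-130959996, plus strand: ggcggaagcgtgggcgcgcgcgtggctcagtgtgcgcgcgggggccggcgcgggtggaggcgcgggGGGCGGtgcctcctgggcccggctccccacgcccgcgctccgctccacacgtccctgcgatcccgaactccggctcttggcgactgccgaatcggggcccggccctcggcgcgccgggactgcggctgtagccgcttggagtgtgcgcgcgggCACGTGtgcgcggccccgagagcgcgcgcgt
Igf2r, chr1:50526628-50526877, plus strand: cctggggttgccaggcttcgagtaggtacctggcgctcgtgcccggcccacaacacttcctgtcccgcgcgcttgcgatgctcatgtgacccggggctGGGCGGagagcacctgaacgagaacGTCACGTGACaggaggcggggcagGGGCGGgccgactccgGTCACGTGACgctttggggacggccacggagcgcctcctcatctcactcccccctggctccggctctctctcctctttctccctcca

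The Igf1 stretch was 46.8% G and C and held none of these letters, the Igf1r stretch was 79.6% G and C, and the Igf2r stretch 68.0%, against a median of 51.2% over all 33469 RefSeq promoter entries of rat. Igf1r had 1 GC box and, starting 31 bases before the start, 1 E-box. Igf2r had 2 GC boxes and 2 CLEAR elements, which begin 127 and 87 bases before the start. The GC box letters were in 30.5% of all entries, the E-box in 5.59% and the CLEAR letters in 0.203%, and 3 of the 33469 entries held the CLEAR letters at least 2 times. Among 48 tested genes whose promoter holds the CLEAR letters, Igf2r included, 16 were called lower (33.3%) and 8 higher (16.7%), beside 22.1% lower and 20.1% higher of the 8973 tested genes with a promoter entry. These motifs were chosen with the sequences and expression values in view, and a match is a run of letters, not a measured binding site. The CLEAR letters were taken from the Igf2r stretch itself, and Igf2r is among the 16 genes called lower. Their rarity and these counts are therefore no test of a link between the letters and the fall of Igf2r, which was not tested. All 10 genes had a promoter entry by symbol, Igf2 with a second start. Of these 11 entries, 5 held the GC box, 3 the E-box, 1 the CLEAR letters, 1 TATAAA and 1, that of Igfbp6, GTAAACA. Igfbp7 had 4 GC boxes, and Igfbp2 had 1 GC box and 1 E-box.

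Of the 6 binding protein genes, 3 rose, 1 did not pass the test and 2 were barely detected. Igfbp7 was the most abundant gene of the system per length. On the plus strand of mRatBN7.2 at chr14:30737164-30797314 (ENSRNOG00000002050), it reached 865, 928 and 910 CPM in siRNA_ANK and 722, 736 and 751 CPM in the controls. The groups did not overlap, although the difference was small: 901 ± 32.5 CPM in siRNA_ANK against 736 ± 14.8 CPM in the controls (SD, n = 3 each), 1.22-fold higher (log2 fold change 0.29 ± 0.05 by SE, with adjusted p = 0.000425 from edgeR). Against a fold of 1.2 the change did not pass (edgeR adjusted p = 0.365). Polr2b, a gene on the opposite strand that overlaps the span of Igfbp7, had at most 73.5 CPM in siRNA_ANK and 74.6 CPM in the controls and was not called (edgeR adjusted p = 0.651); without a known strand setting, reads of overlapping genes cannot be told apart.

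Igfbp2 (ENSRNOG00000016957, chr9:74415546-74442937, plus strand of mRatBN7.2), which encodes a binding protein that favours IGF2 and can bind integrins, was at 35.5, 33.6 and 34.0 CPM in siRNA_ANK and at 17.8, 17.9 and 16.5 CPM in the controls. Every siRNA_ANK library stood near 34 CPM and every control near 17 CPM. The group means were 34.4 ± 0.996 CPM in siRNA_ANK and 17.4 ± 0.782 CPM in the controls (SD, n = 3 each), 1.98-fold higher in siRNA_ANK (log2 fold change 0.98 ± 0.08 by SE, with adjusted p = 3.32e-07 from edgeR). Its neighbour on chromosome 9, Igfbp5 (ENSRNOG00000017206, chr9:74448382-74465156, minus strand), lies 5444 bp away on the other strand and encodes a binding protein that adheres to matrix. Igfbp5 had 7, 7 and 11 counts in siRNA_ANK and 3, 4 and 10 in the controls, too few to be tested. Igfbp3, whose protein is the main IGF carrier in blood, was also scarce (ENSRNOG00000061910, chr14:82056347-82064083, minus strand), with 15, 3 and 6 counts in siRNA_ANK and 10, 9 and 6 in the controls. Without the filter on low counts, neither was called (edgeR adjusted p = 0.550 for Igfbp5 and 0.995 for Igfbp3).

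Igfbp6 (ENSRNOG00000010977, chr7:133276234-133280966, plus strand of mRatBN7.2), whose protein prefers IGF2 over IGF1, measured 62.1, 58.5 and 62.7 CPM in siRNA_ANK and 40.8, 46.0 and 40.9 CPM in the controls. The lowest siRNA_ANK library was well above the highest control. Its means were 61.1 ± 2.30 CPM in siRNA_ANK and 42.5 ± 2.96 CPM in the controls (SD, n = 3 each), 1.44-fold higher (log2 fold change 0.52 ± 0.07 by SE, with adjusted p = 3.79e-05 from edgeR). Igfbp4 (ENSRNOG00000010635, chr10:83989591-84007225, plus strand), which encodes an inhibitor of IGF action, was at 104, 95.8 and 123 CPM in siRNA_ANK and at 111, 117 and 112 CPM in the controls. The siRNA_ANK libraries lay on both sides of the controls, with replicate 3 highest of all 6. Igfbp4 averaged 107 ± 13.9 CPM in siRNA_ANK and 113 ± 3.23 CPM in the controls (SD, n = 3 each; log2 fold change -0.08 ± 0.08 SE, edgeR adjusted p = 0.455). Without siRNA_ANK replicate 3 it was called lower, with a log2 fold change of -0.19 (edgeR adjusted p = 0.00646).

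**Figure D2:**
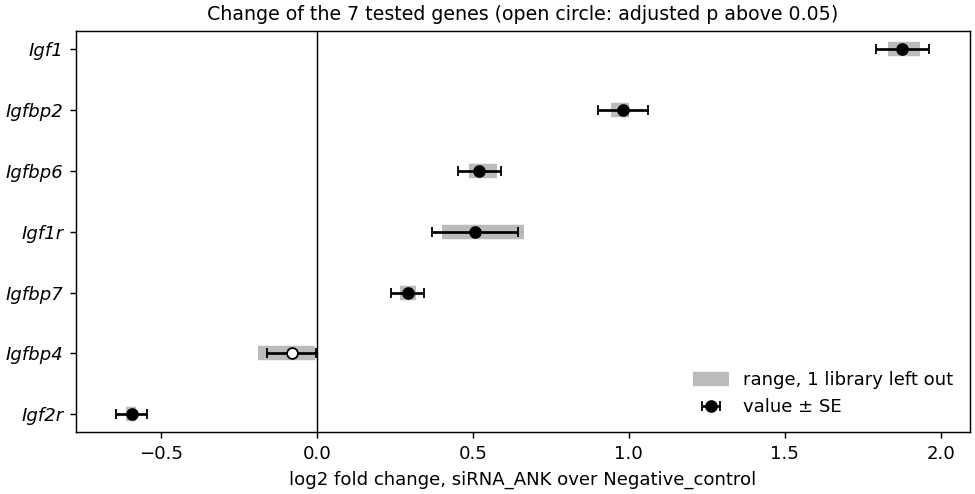
Log2 fold change of siRNA_ANK over Negative_control for the 7 tested genes (points with SE; an open circle did not pass the threshold), with grey bars from the lowest to the highest value when 1 library was left out. Igf1 stands at 1.88 and Igf2r at -0.59, while the grey bars of Igf1r (0.40 to 0.66) and Igfbp4 (-0.19 to -0.01) are the longest.

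Ranked by mean TPM, the order in siRNA_ANK was Igfbp7 (1854 ± 60.4), Igf2r (260 ± 6.79), Igfbp6 (176 ± 6.08), Igfbp4 (118 ± 14.1), Igfbp2 (72.7 ± 2.65), Igf1r (33.1 ± 7.05), Igf1 (25.9 ± 1.08), Igfbp3 (0.562 ± 0.433), Igfbp5 (0.244 ± 0.0733) and Igf2 (0.0122 ± 0.0212), all as SD with n = 3. The controls had 1543 ± 45.1 TPM of Igfbp7, 399 ± 5.49 of Igf2r, 127 ± 3.62 of Igfbp4, 125 ± 8.37 of Igfbp6, 37.4 ± 1.36 of Igfbp2, 23.7 ± 1.22 of Igf1r, 7.17 ± 0.511 of Igf1, 0.568 ± 0.110 of Igfbp3 and 0.167 ± 0.123 of Igfbp5, with Igf2 at 0. Neighbours that overlapped in that order were Igf1r with Igf1 and Igfbp3 with Igfbp5 in siRNA_ANK, and Igfbp4 with Igfbp6 in the controls. Within each library Igf1 was below Igf1r in both groups: 26.9 against 36.6, 26.1 against 37.7 and 24.7 against 25.0 TPM in siRNA_ANK, and 6.69 against 23.0, 7.71 against 25.1 and 7.12 against 23.0 TPM in the controls.

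Igfbp7 made up most of the binding protein transcripts in every library. The 6 binding protein genes summed to 2169, 2264 and 2233 TPM in siRNA_ANK replicates 1, 2 and 3 and to 1782, 1840 and 1875 TPM in the controls. Igfbp7 made up 82.8%, 84.7% and 82.8% of this sum in siRNA_ANK and 84.2%, 83.5% and 84.8% in the controls, with overlapping groups (exact permutation p = 0.3). The difference of -0.73 percentage points (siRNA_ANK minus control) was -1.35 without siRNA_ANK replicate 2, -0.42 without siRNA_ANK replicate 1 or 3 and -0.41 without Negative_control replicate 3. The share of Igfbp2 averaged 3.28 ± 0.189% in siRNA_ANK and 2.04 ± 0.116% in the controls, that of Igfbp6 7.92 ± 0.428% in siRNA_ANK and 6.80 ± 0.437% in the controls, and that of Igfbp4 5.32 ± 0.652% in siRNA_ANK and 6.94 ± 0.165% in the controls (SD, n = 3 each). For each of these 3 shares the groups did not overlap and the exact two-sided permutation test gave p = 0.1, the smallest possible. Relative to the binding proteins, Igf1 stood at 1.24, 1.15 and 1.11 TPM per 100 TPM of their sum in siRNA_ANK and at 0.375, 0.419 and 0.380 in the controls. The mean of this ratio was 2.98-fold higher in siRNA_ANK, again with groups that did not overlap and exact permutation p = 0.1.

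**Figure D3:**
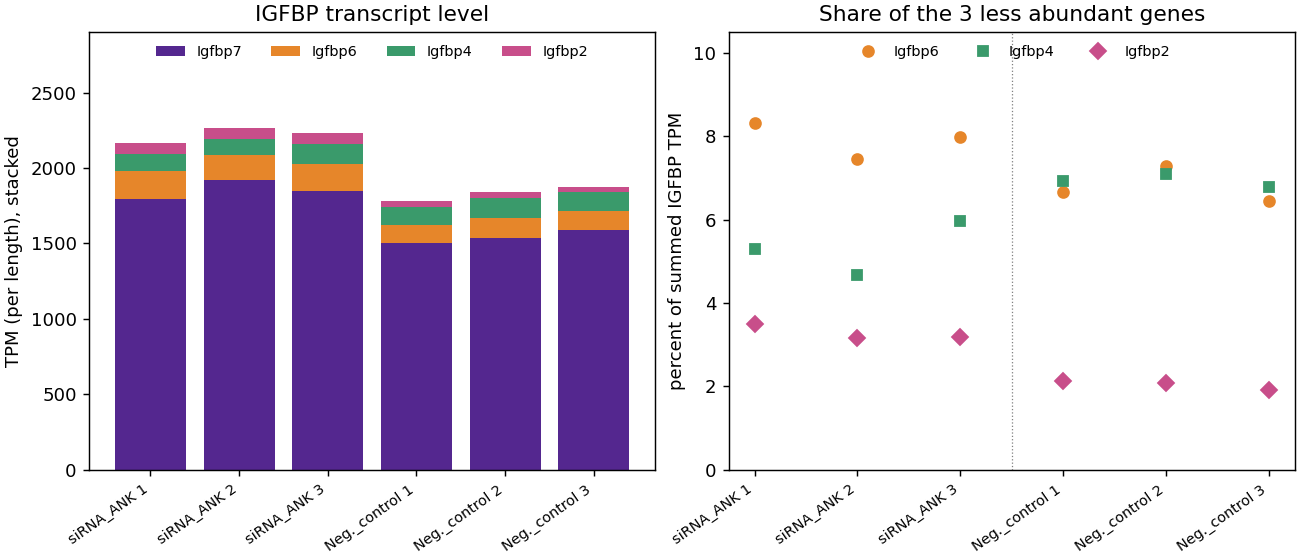
Left, stacked TPM of the 4 binding protein genes above 1 TPM in each library; right, the percent of summed IGFBP TPM held by Igfbp6, Igfbp4 and Igfbp2, with siRNA_ANK libraries left of the Negative_control libraries. With Igfbp3 and Igfbp5, which are too low to draw, the sum is 2169 to 2264 TPM in siRNA_ANK and 1782 to 1875 TPM in the controls, and the shares of Igfbp4 and Igfbp6 lie apart in siRNA_ANK and overlap in the controls.

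Genes around the system were followed in 10 lists of 123 genes, of which 119 were matched by symbol and 106 tested. Of these 106, 29 rose and 31 fell, or 56.6% called, with a median log2 fold change of -0.04. Over all genes tested 40.1% were called, 19.9% higher and 20.2% lower, the background for each list count below. With 1 library left out, the whole table gave 1991 to 2874 genes called higher and 2062 to 2976 lower, instead of 2594 and 2629. List counts with a library left out stand beside those totals. Among IGFBP proteases and their inhibitors, 4 of 8 tested rose and 2 fell. Pappa2, a pappalysin that cuts IGF-binding proteins, rose 3.34-fold to 4.18 ± 1.01 CPM in siRNA_ANK, against 1.25 ± 0.0556 CPM in the controls (SD, n = 3 each, edgeR adjusted p = 7.25e-05). Adam12, a metalloprotease reported to cut binding proteins, fell to 163, 151 and 155 CPM in siRNA_ANK, against 637, 588 and 658 CPM in the controls, 4.02-fold lower (edgeR adjusted p = 1.57e-11). The gelatinase gene Mmp2 rose 1.16-fold (edgeR adjusted p = 0.00324). The count of risen genes in this list was 2 without siRNA_ANK replicate 1, Negative_control replicate 1 or Negative_control replicate 3, and the count of fallen genes 1 without siRNA_ANK replicate 2 or 3.

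Genes for folding and cutting the IGF precursors moved in both directions, 2 of 7 higher and 4 lower, beside 19.9% and 20.2% of all genes tested. Hsp90b1, the endoplasmic reticulum chaperone on which IGF folding depends, was at 1277, 1101 and 1903 CPM in siRNA_ANK and at 5883, 4693 and 6166 CPM in the controls, 3.91-fold lower (edgeR adjusted p = 0.00475). Its co-chaperone gene Cnpy3 was 1.52-fold lower. The proprotein convertase genes Pcsk5 and Pcsk6 rose 3.08-fold and 1.58-fold, Pcsk5 with 140, 148 and 119 CPM in siRNA_ANK and 44.6, 43.9 and 43.9 CPM in the controls. The count of fallen genes was 2 without siRNA_ANK replicate 2, Negative_control replicate 1 or Negative_control replicate 3.

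Of 9 genes of mannose 6-phosphate sorting, the pathway that Igf2r serves, 4 were called lower and 0 higher in the main test. Over all genes tested, 20.2% were called lower and 19.9% higher. Gga2 and Gga3, adaptors that load the receptor into Golgi carriers, were 1.47-fold and 1.35-fold lower, with Gga2 at 62.4, 58.4 and 65.5 CPM in siRNA_ANK and 97.3, 85.8 and 91.6 CPM in the controls. Nagpa, which uncovers the mannose 6-phosphate tag, and Gnptab, which adds it, were 1.29-fold and 1.19-fold lower. The Gnptab call was lost without siRNA_ANK replicate 1 or 2 or Negative_control replicate 1 or 3 (edgeR adjusted p between 0.0506 and 0.221). M6pr, the other mannose 6-phosphate receptor gene, was not called, with a log2 fold change of -0.12 (edgeR adjusted p = 0.0932). Sort1, named after its value was seen, was higher but not called (log2 fold change 0.26, edgeR adjusted p = 0.0627). Without siRNA_ANK replicate 3 there was 1 gene called higher, and without that library and Negative_control replicate 2 together 7 genes were lower. DESeq2, upper quartile scaling, no filter and the replicate block also gave 1 gene called higher. Over the whole table, 2874 genes were called higher and 2976 lower without siRNA_ANK replicate 3. Without that library and Negative_control replicate 2 together these totals were 3007 and 3049, against 2594 and 2629 in the main test.

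**Figure D4:**
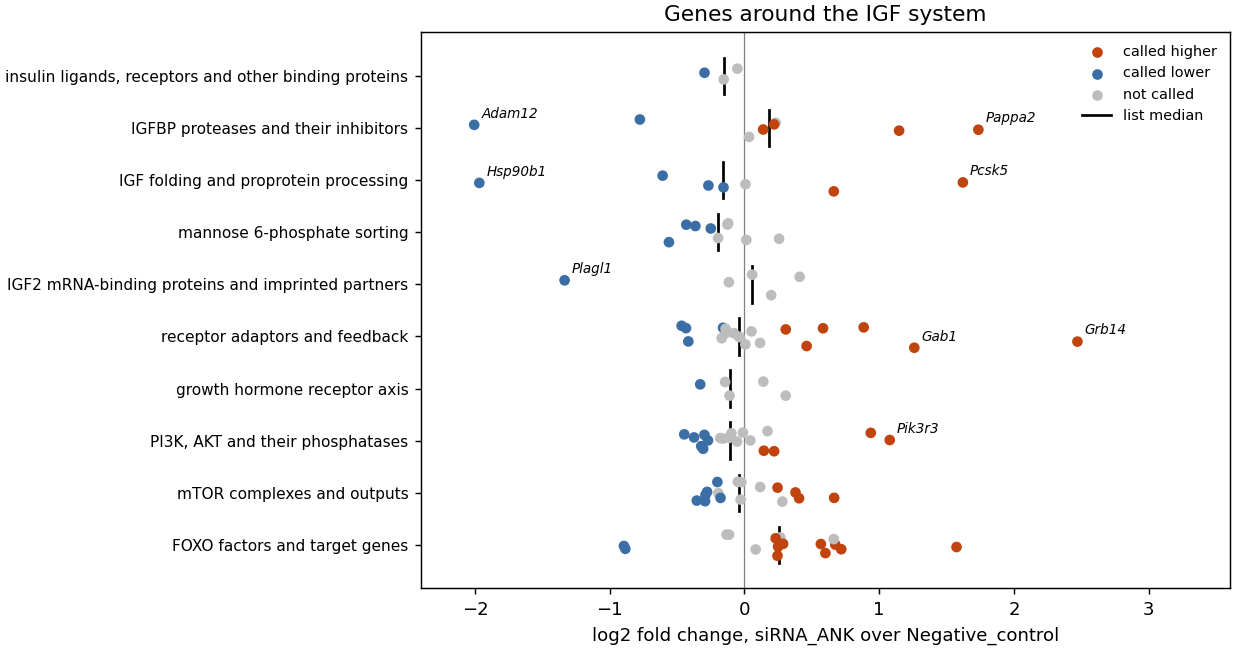
Log2 fold change of siRNA_ANK over Negative_control for each tested gene of the 10 lists around the IGF system, with a bar at each list's median. Grb14 at 2.47 lies farthest to the right, Adam12 at -2.01 and Hsp90b1 at -1.97 farthest to the left, and the mannose 6-phosphate list has called genes only below 0.

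Receptor adaptors and feedback genes split, 6 of 19 higher and 4 lower, beside 19.9% and 20.2% of all genes tested. Grb14, which binds the activated insulin receptor and inhibits it, was at 466, 479 and 413 CPM in siRNA_ANK and at 75.0, 95.9 and 74.0 CPM in the controls, 5.55-fold higher (log2 fold change 2.47 ± 0.10 by SE, with adjusted p = 3.87e-08 from edgeR). Irs1 and Irs2, the main docking proteins of the IGF1 receptor, were chosen after their values were seen: they rose, Irs1 by 1.38-fold and Irs2 by a log2 fold change of 0.58, with Irs2 at 105, 103 and 74.1 CPM in siRNA_ANK and 59.7, 66.3 and 62.0 CPM in the controls. The cytokine signalling suppressor gene Socs3 rose 1.85-fold, while the adaptor genes Shc1 and Crk were 1.35-fold and 1.33-fold lower. Insr, the insulin receptor gene, was 1.23-fold lower (edgeR adjusted p = 0.0109), a call lost without siRNA_ANK replicate 3 and Negative_control replicate 2 together (0.0541), and it was the 1 gene called among 3 tested of its list. Ghr, the growth hormone receptor gene, was 1.26-fold lower and the only call among 5 tested genes of its axis. Plagl1, an imprinted zinc finger factor that regulates Igf2 in mouse, was 2.55-fold lower, the 1 call among 5 tested genes of imprinted partners and IGF2 mRNA-binding proteins. In the adaptor list 2 genes fell without siRNA_ANK replicate 1 or 2 or Negative_control replicate 2 or 3, and in the growth hormone list 2 fell without siRNA_ANK replicate 3.

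Genes of the downstream kinase pathways split as well. Their counts stand beside 19.9% called higher and 20.2% called lower over all genes tested. Of 18 PI3K and AKT genes, 4 rose and 6 fell: Pik3r3, a regulatory subunit of PI3K, rose 2.11-fold, with 16.8, 18.3 and 15.8 CPM in siRNA_ANK and 7.14, 8.64 and 8.37 CPM in the controls (edgeR adjusted p = 5.40e-06), while Akt2, Inppl1 and Gsk3b were 1.30-fold, 1.25-fold and 1.24-fold lower. Among 16 mTOR genes, 4 rose and 6 fell, with Deptor, an mTOR inhibitor, 1.59-fold higher, the autophagy kinase gene Ulk1 1.30-fold higher, and Mtor itself and Eif4ebp2 1.23-fold and 1.28-fold lower. FOXO factors, which AKT keeps out of the nucleus, and their target genes had 9 of 16 higher and 2 lower, with a median log2 fold change of 0.26. Foxo1, Cited2 and Sesn1 rose 1.59-fold, 1.48-fold and 1.65-fold, and Bnip3, a mitophagy receptor, was 1.84-fold lower. The FOXO count of risen genes was 3 without Negative_control replicate 1 and 5 without Negative_control replicate 2 or siRNA_ANK replicate 2, and the mTOR count of fallen genes was 3 without Negative_control replicate 1. Calls fell over the whole table too. They were 1991 higher and 2062 lower without Negative_control replicate 1, against 2594 and 2629 in the main test. Calls higher were 2388 without Negative_control replicate 2 and 2135 without siRNA_ANK replicate 2.

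By Euclidean distance between centred log2 CPM values over the 6 libraries, among 8026 genes whose mean reached 10 CPM, the profile nearest to Igf1 was that of Slc8a1, the sodium-calcium exchanger gene (distance 0.131), followed by Tmem158 (0.233). Nearest to Igf1r were Zfp74 (0.123) and its own adaptor gene Irs2 (0.137). Igf2r lay nearest to the mechanically gated channel gene Piezo1 (0.0659) and to Jade1 (0.0682), and Igfbp2 nearest to Fmr1 (0.0796) and the elastic fibre gene Mfap4 (0.0852). For Igfbp6 these were Mgll (0.0531) and Fahd2a (0.0631), for Igfbp7 Gatd3a (0.0513) and Rpap3 (0.0557), and for Igfbp4 Cuedc2 (0.0388) and Lonp2 (0.0549). With 2 groups of 3 libraries, such a distance mostly measures a like fold between the groups.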

How the data were processed

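The authors deposited raw counts per gene in 1 file per library. Build mRatBN7.2, featureCounts 1.5.0-p3 and DESeq2 are named in the submitters' processing notes, while aligner, strand setting and read filters are not given in the sources used. Loci without an Ensembl identifier (385) held 0.306% to 0.339% of counts. Genes were kept by filterByExpr of edgeR 4.0.16 (R 4.3.3; minimum count 10, minimum total 15), scaled with TMM and tested, two-sided, by the quasi-likelihood method with robust settings, with Benjamini-Hochberg adjustment across every tested gene. The SE is the log2 fold change over the root of F. TPM were computed from the counts and the files' gene lengths. Limits for counts of 0 cover counting error only. Chi-square per degree of freedom between libraries of a group was at least 2.83, so none was a duplicate. The steps were tested on simulated counts. Promoter letters are from RefSeq, GRCr8.

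The genes and lists were chosen with earlier results of these data known. The text names all 10 IGF genes; per list, up to 4 called genes with the smallest adjusted p (where none was called, the 2 most abundant); Ankh; and the 2 nearest profiles of each tested member. Of the genes this rule names, 1 is not reported here. Of list entries, Pappa, Cnpy4, Irs4, Foxo4 and Krt19 were not matched by symbol and were not analysed here. Alternatives were DESeq2 1.42.0, limma-voom (limma 3.58.1), other scalings and filters, a replicate block, a test against a fold of 1.2, each library left out, and, added after seeing the data, siRNA_ANK replicate 3 and Negative_control replicate 2 left out together.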

Additional observations from a re-analysis of the deposited data

How the results depend on the processing

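Igf1, Igf2r, Igfbp2 and Igfbp6 kept their direction and passed the threshold in all 15 alternative settings, and Igfbp7 in 14. Without any 1 library, the log2 fold change of Igf1r was 0.40 to 0.66 and that of Igfbp4 -0.19 to -0.0052. Without siRNA_ANK replicate 3 and Negative_control replicate 2 together, a choice made after seeing the data, Igf1r was at 0.71 and Igfbp4, at -0.16, was called lower (edgeR adjusted p = 0.0125). Against a fold of 1.2, Igf1r (0.51) and Igfbp7 (0.29) were not called, and over all genes 1335 were higher and 1142 lower, instead of 2594 and 2629. The pathway lists then had 15 higher and 12 lower, instead of 29 and 31; by list, the calls higher and lower were 0 and 0 for insulin, 1 and 2 for proteases, 2 and 2 for folding, 0 and 2 for mannose 6-phosphate, 0 and 1 for imprinted partners, 5 and 2 for adaptors, 0 and 0 for growth hormone, 2 and 1 for PI3K, 1 and 0 for mTOR and 4 and 2 for FOXO. The test then asks for more than a fold of 1.2, so fewer calls follow from its construction; for the other changes the cause was not tested.

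DESeq2 gave 2 higher proteases, 2 lower adaptors and 1 higher mannose 6-phosphate gene, a count of 1 that upper quartile scaling, no filter and the block gave too. With no filter, 2 insulin genes were lower and 1 gene each of the imprinted and growth hormone lists higher; with genes kept from a mean of 5 CPM, 2 proteases were higher and 0 imprinted genes lower. Without both libraries named above, 30 pathway genes were higher, 1 of them of mannose 6-phosphate sorting, and 0 insulin genes, 2 growth hormone genes and 7 mannose 6-phosphate genes were lower. Over the whole table, that setting called 3007 genes higher and 3049 lower, against 2594 and 2629 in the main test. With 1 library left out, ranges were 19 to 29 for all pathway genes higher, 2 to 4 for proteases higher and 1 to 2 lower, 2 to 4 for folding lower, 0 to 1 for mannose 6-phosphate higher and 3 to 6 lower, 2 to 5 for adaptors lower, 1 to 2 for growth hormone lower, 3 to 5 and 5 to 8 for PI3K higher and lower, 3 to 6 for mTOR lower and 3 to 7 for FOXO higher. Over the whole table, the calls then ranged from 1991 to 2874 higher and from 2062 to 2976 lower. Both totals were lowest without Negative_control replicate 1 and highest without siRNA_ANK replicate 3.

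Shares of CPM with no division by length put the siRNA_ANK minus control difference at -2.74 percentage points for Igfbp4 and 0.68 for Igfbp7, instead of -1.62 and -0.73. The Igfbp7 difference was -1.35 to -0.41 with 1 library left out: -0.42 without siRNA_ANK replicate 1, -1.35 without replicate 2 and -0.42 without replicate 3, and -1.08 without Negative_control replicate 2 and -0.41 without replicate 3. Same-numbered libraries did not deviate together: the correlations of deviations from the group means were -0.03, 0.07 and 0.05 for numbers 1, 2 and 3, and not every library correlated best with its own number. A fit with the replicate block called 2579 genes higher and 2631 lower and changed no call among the 10 IGF genes. Scalings moved the median of all genes by less than 0.1 on the log2 scale. Igf2, Igfbp3 and Igfbp5 did not reach the count filter, and without it none was called (edgeR adjusted p = 0.564, 0.995 and 0.550).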

Other observations

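In the 10 lists around the IGF system, 6 genes had counts but too few to be tested. In 3 of these 6 the groups did not overlap, beside 51.1% of the genes with enough counts to be tested. Igfals, which encodes the partner that stabilises IGF complexes in blood, had 0 counts in every siRNA_ANK library, which allows up to 0.0599 CPM over the group for counting error, and 0.169, 0.345 and 0.125 CPM in the controls. Igf2bp1, which encodes an RNA-binding protein that binds IGF2 mRNA, had 0.180, 0.839 and 0.380 CPM in siRNA_ANK and 0 counts in every control, which allows up to 0.0597 CPM over the group. Socs2, a feedback inhibitor of growth hormone signalling, had 1.14, 0.479 and 0.507 CPM in siRNA_ANK and 0.225, 0.288 and 0.187 CPM in the controls.

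The groups overlapped in the other 3. Cdkn1c, an imprinted cell cycle inhibitor gene, had 0.300, 0.120 and 0.317 CPM in siRNA_ANK and 0.281, 0 and 0.0625 CPM in the controls. Dlk1, an imprinted gene, had 0.180, 0.180 and 0.317 CPM in siRNA_ANK and 0.169, 0.115 and 0.187 CPM in the controls. Foxo6, a FOXO factor gene, had 0.300, 0.180 and 0.0633 CPM in siRNA_ANK and 0.225, 0.230 and 0.125 CPM in the controls. These genes were chosen for description after their values were seen.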
